A study of Rattus norvegicus with 69 samples.

Results

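The comparison concerned hippocampal CA1 of rats under 72 h of stress from an unfamiliar environment (72NES, 6 samples) and of rats left in their home cage (HC, 5 samples), which made 11 of the 69 samples of the series. Members were all samples that the labels place in these groups of cohort 1, and no sample of cohort 2 entered. All animals were male rats of the strain that the labels spell Fisher 344, aged 3 to 5 months, with no genetic change named. The question was whether the new surroundings that go with the sleep deprivation procedure, without the forced waking, left a mark on CA1 messenger RNA after 72 h.

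Animals of the NES groups lived in the tank that served for sleep deprivation (SD), in which upturned flower pots stand as platforms above shallow water. For NES a coated metal grid was laid across the pots, so that the animals could lie down and sleep. Cohort 1 also held 10 samples of 24 h of the same exposure (24NES) and 8 samples of 72 h of sleep deprivation (72SD), which serve below for direct contrasts. Each sample was 1 animal on 1 Affymetrix rat genome array, and each value was a MAS5 signal, a linear brightness combined over the probes of a probe set. Signals were compared on the log2 scale, so that a difference of 1 is a doubling.

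These groups carry limits as a model. In cohort 1 the HC and SD groups had earlier been taught a one-way active avoidance task, and the methods do not name NES animals among those given this training. Unless NES animals were trained as well, training and the new surroundings cannot be told apart in the contrasts of NES with HC. The same holds for training and sleep loss in the contrast of 72SD with 72NES. The paper states, without showing data, that it saw no training effect on stress or array measures, which was not tested here. Rats were housed in pairs, and the labels do not say which animals shared a cage or chamber, so every p treats the animals as independent. Animals were decapitated under CO2 anesthesia, and CA1 was measured as a block of tissue. In such a block, fewer cells of a type and less RNA per cell cannot be told apart.

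A new environment engages the hypothalamic, pituitary and adrenal axis, which releases corticosterone into the blood. Corticosterone enters the hippocampus and acts there through the mineralocorticoid receptor and the glucocorticoid receptor, which bind DNA and change the transcription of target genes such as Sgk1. Exploration of a new place also drives hippocampal firing, which induces immediate early genes such as Fos, Egr1 and Arc within minutes and lets their RNA decay within hours.

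One array of 72NES, that of subject 71, stood apart. Its ratios of 3′ to 5′ control signals, which grow as RNA is shortened from the 5′ end, were 1.26 for GAPDH and 1.76 for beta actin, the highest of the 69 arrays. Its median signal was 400.5, against 452.8 to 475.5 on the other 5 arrays of 72NES. In HC, subject 3 had the highest GAPDH ratio, 1.18, but its beta actin ratio of 0.90 was the lowest of the 69 arrays. The GAPDH ratio averaged 1.05 ± 0.112 (SD) over the 72NES arrays and 1.05 ± 0.0765 (SD) over HC, with a two-sided exact permutation p = 0.877. For beta actin the averages were 1.28 ± 0.286 (SD) and 1.21 ± 0.19 (SD), with p = 0.665 by the same exact test, whose smallest possible p was 0.00433. In 24NES, which shares the fit, the array of subject 58 stood apart in another way, with a median correlation with other arrays of 0.91 against 0.941 for subject 71.

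The tissue was checked against markers fixed by cell type. Genes of neurons gave strong signals, with HC values of 24761 to 29865.5 for Snap25, a vesicle fusion protein, and 25925.5 to 34045 for Nrgn, a calmodulin binding protein of pyramidal dendrites. Ttr, the marker of choroid plexus, ranged from 453.5 to 1618 in HC with a median of 689.3. In 72NES it ranged from 335.5 to 981 with a median of 466. The median signal of the HC arrays was 430.6 to 469.7. The summed signal of 14 choroid plexus and meningeal markers ranged from 11719 to 14699 in HC and from 11496 to 18279 in 72NES. Of 5 blood markers 2 were higher and 3 lower, 0 passed the study's unadjusted threshold of 0.05, and the median difference was -0.17. Their summed signal, most of it from the haemoglobin chain Hbb, ranged from 16337 to 18539 in HC and from 10734.5 to 16079 in 72NES, without overlap. Hbb itself read 9702, 9540.3, 12091, 9823 and 11491 in HC and from 5166 to 9496 with a median of 8677 in 72NES, a difference of -0.39 (limma p = 0.104, adjusted p = 0.927). Whether residual blood had a part in the differences given below was not tested.

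No gene passed the adjusted test. In limma, 0 of 7006 probe sets with 1 gene symbol reached an adjusted p under 0.05 for 72NES against HC, and the smallest adjusted p was 0.116. At the threshold the study used, an unadjusted p of at most 0.05, 390 probe sets passed (5.57%), with 181 higher in 72NES (2.58%) and 209 lower (2.98%). The contrast of 72NES with HC within a 1-way ANOVA on untransformed signals gave 0 at the adjusted level and 368 at the unadjusted level. This contrast is not the ANOVA's own test over all groups at once, so the count is not a rerun of the study's test. The methods of the study also removed outlying values before its ANOVA. With values over 2 SD from their group mean taken out, the contrast gave 0 and 509 (7.27%). In a group of 5 arrays, such as HC, no value can lie over 2 SD from a mean that includes it. Values could therefore be removed from the NES groups only, which narrows their spread. The rise from 368 to 509 thus does not show that more genes differed. Without 24NES subject 58 the limma fit gave 0 and 470 (6.71%). Nothing below that rests on an unadjusted p counts as a called change, and each count of a list is to be read against the share over all genes.

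Each gene was then represented by its brightest probe set, which gave 4736 genes. Of these, 249 (5.26%) passed the study's threshold, 125 higher (2.64%) and 124 lower (2.62%). The median difference over all genes was 0.01, and the median size of a difference was 0.14. The 95% interval of a gene's difference reached a median of 0.41 to either side, and 0.31 among the 2689 genes in the upper 50% of signals. A p above the threshold therefore does not show that a gene was alike in both groups.

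**Figure D1:**
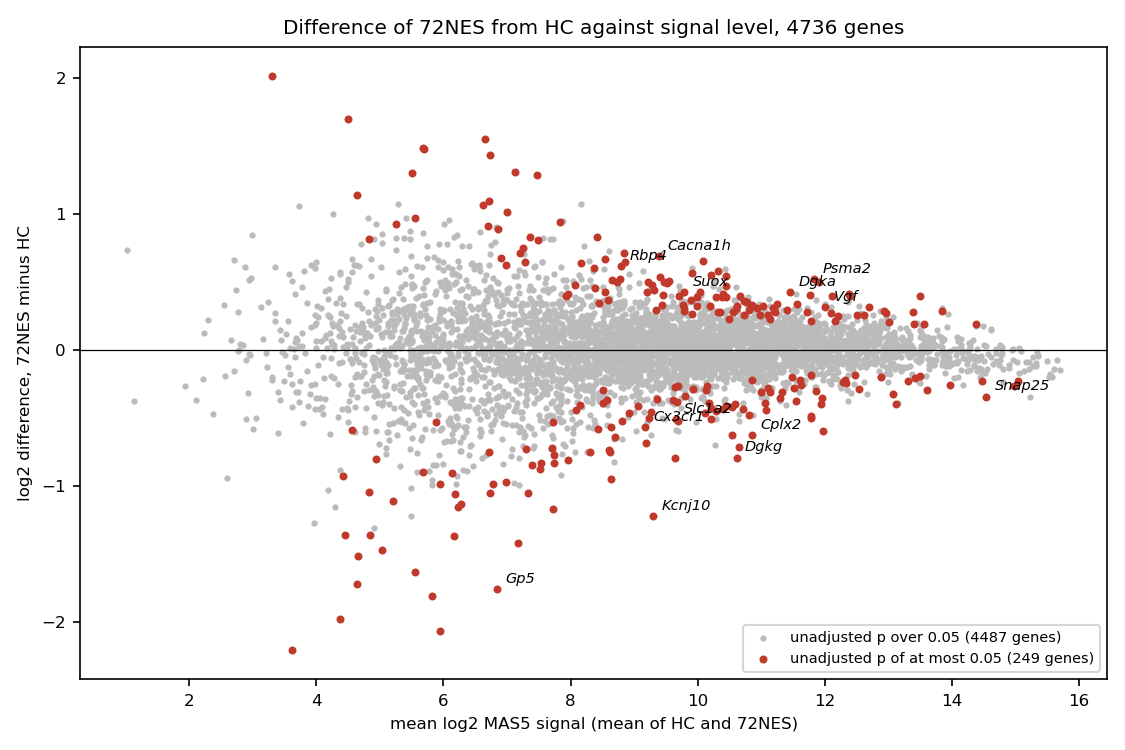
Each point is 1 of 4736 genes. The horizontal axis gives the mean log2 MAS5 signal of HC and 72NES, and the vertical axis the log2 difference of 72NES from HC. Red points are the 249 genes with an unadjusted p of at most 0.05, and grey points the rest. Differences spread evenly about 0 and widen toward low signals, where Gp5 lay at -1.76. Kcnj10 at -1.22 was the lowest of the labelled genes with brighter signals.

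Genes measured with more light gave smaller and steadier differences. Among the 2689 genes in the upper 50% of signals, 162 passed the study's threshold (6.02%), with 89 higher (3.31%) and 73 lower (2.71%). The 12 with the smallest p in each direction are described here. Suox, the mitochondrial enzyme that oxidises sulfite in the breakdown of sulphur amino acids, led those that were higher. Its signals were 719.5, 834, 783, 711 and 777 in HC, and in 72NES they ranged from 879.8 to 1182.5 with a median of 1049. All 72NES arrays lay above all HC arrays, and the log2 difference was 0.42 ± 0.11 (SE) with an adjusted p of 0.474 in limma.

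A pair of lipid kinases stood on opposite sides. Dgka and Dgkg encode diacylglycerol kinases, which turn diacylglycerol, an activator of protein kinase C, into phosphatidic acid. Dgka read 2265, 2644, 2358, 2264 and 2639 in HC, and from 2932 to 3624 with a median of 3299 in 72NES. The groups did not overlap, the difference was 0.42 ± 0.11 (SE), and both of its probe sets gave 0.42. Dgkg went the other way, with 1965, 2653, 1803, 1939.5 and 2065 in HC and values from 387 to 1670.3 with a median of 1449 in 72NES. Its difference of -0.79 ± 0.26 (SE) leaned on subject 71, whose 387 was far below the 1413 to 1670 of the other 72NES arrays. Without subject 71 no 72NES array overlapped HC either, and the difference was -0.47.

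Cacna1h, the pore subunit of a T-type calcium channel that opens near the resting potential, read 596, 449, 511, 585 and 519 in HC. In 72NES it ranged from 649.7 to 1246 with a median of 833, with a difference of 0.69 ± 0.19 (SE). Nptx1, a secreted pentraxin that gathers AMPA receptors at synapses, read 3444, 3719.6, 3261, 2740.4 and 3126.5 in HC and from 3944 to 6363 with a median of 4369.9 in 72NES. Neither gene overlapped between groups. For Nptx1 the other 2 probe sets gave 0.01 and -0.03, so the difference of 0.49 belonged to its brightest probe set alone.

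Subunits of transport motors and of the proteasome came next. Dync1i2, an intermediate chain of the dynein motor that carries cargo toward the cell body, read 819, 879, 669, 761 and 847 in HC and from 1040.5 to 1314 with a median of 1155.5 in 72NES, again without overlap (difference 0.56 ± 0.16 SE). Kif3c, a kinesin that carries cargo outward, differed by 0.41 ± 0.12 (SE), while its dimmer probe set gave -0.23. Psma2, a structural subunit of the proteasome core, differed by 0.52 ± 0.13 (SE) without overlap, while its other 2 probe sets gave 0.02 and -0.22. Where probe sets of a gene disagree in this way, the gene's level is uncertain.

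The remaining genes on the higher side covered several roles. Grm4, a presynaptic metabotropic glutamate receptor, differed by 0.58 ± 0.17 (SE). Dyrk1a, a kinase with a role in brain growth, differed by 0.29 ± 0.09 (SE), while its dimmer probe set gave 0.06. Eif3b, a subunit of a translation initiation factor, differed by 0.39 ± 0.12 (SE). Rbp4, the carrier of retinol in blood and cerebrospinal fluid, differed by 0.61 ± 0.17 (SE), and its 2 dimmer probe sets gave 0.10 and 0.23. In each of these 4 genes every 72NES array lay above the HC mean, and the ranges of the groups overlapped.

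Cx3cr1, the fractalkine receptor by which microglia sense neurons, had the smallest p on the lower side. It read 707, 841, 550.1, 786 and 677 in HC and from 367.5 to 546 with a median of 501 in 72NES, so that the groups did not overlap (difference -0.57 ± 0.16 SE, adjusted p = 0.596 in limma). Of 20 microglial and immune markers measured, 11 were higher and 9 lower, with a median difference of 0.01. Cx3cr1 was the only one of them past the study's threshold, at which 2.62% of all genes were lower. Their summed signal ranged from 75940.5 to 100189 in HC and from 71484 to 103096 in 72NES.

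Ntm, Unc5a and Ncam1 on the lower side serve adhesion and axon guidance. Ntm, an adhesion molecule anchored in the outer membrane of neurons, read 2389, 1820.1, 2326, 2036 and 2085 in HC and from 1161 to 1836 with a median of 1558 in 72NES (difference -0.48 ± 0.14 SE). Unc5a, a receptor for netrin, differed by -0.63 ± 0.21 (SE). Ncam1, the neural cell adhesion molecule, differed by -0.44 ± 0.16 (SE), and its other probe set by -0.10. The 72NES array with the highest signal reached into the HC range for Ntm and Unc5a, and 2 arrays did for Ncam1.

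The last of this group were regulators. Srebf1, the transcription factor that drives fatty acid synthesis, read 1558, 1652, 1640.5, 1512 and 1691 in HC and from 1003 to 1565 with a median of 1232 in 72NES. Its HC values were close together, and 5 of the 6 72NES arrays lay below all of them (difference -0.41 ± 0.13 SE). Tgfb3, a growth factor, differed by -0.53 ± 0.18 (SE). Rab14, a small GTPase of endosome and Golgi traffic, differed by -0.47 ± 0.16 (SE). Septin8, a filament protein found on synaptic vesicles, and Cirbp, an RNA binding protein induced by cold, differed by -0.36 and -0.39, each with 1 array above the HC mean.

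Over all 4736 genes, 25 had every 72NES array above every HC array (0.528%) and 18 had every one below (0.38%). Of the 24 leading genes, which include Cebpb, Slc1a2 and Cplx2 described further on, 7 were among the former and 4 among the latter. Those 24 were picked by p on these same arrays, so the count describes them and supports nothing.

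**Figure D2:**
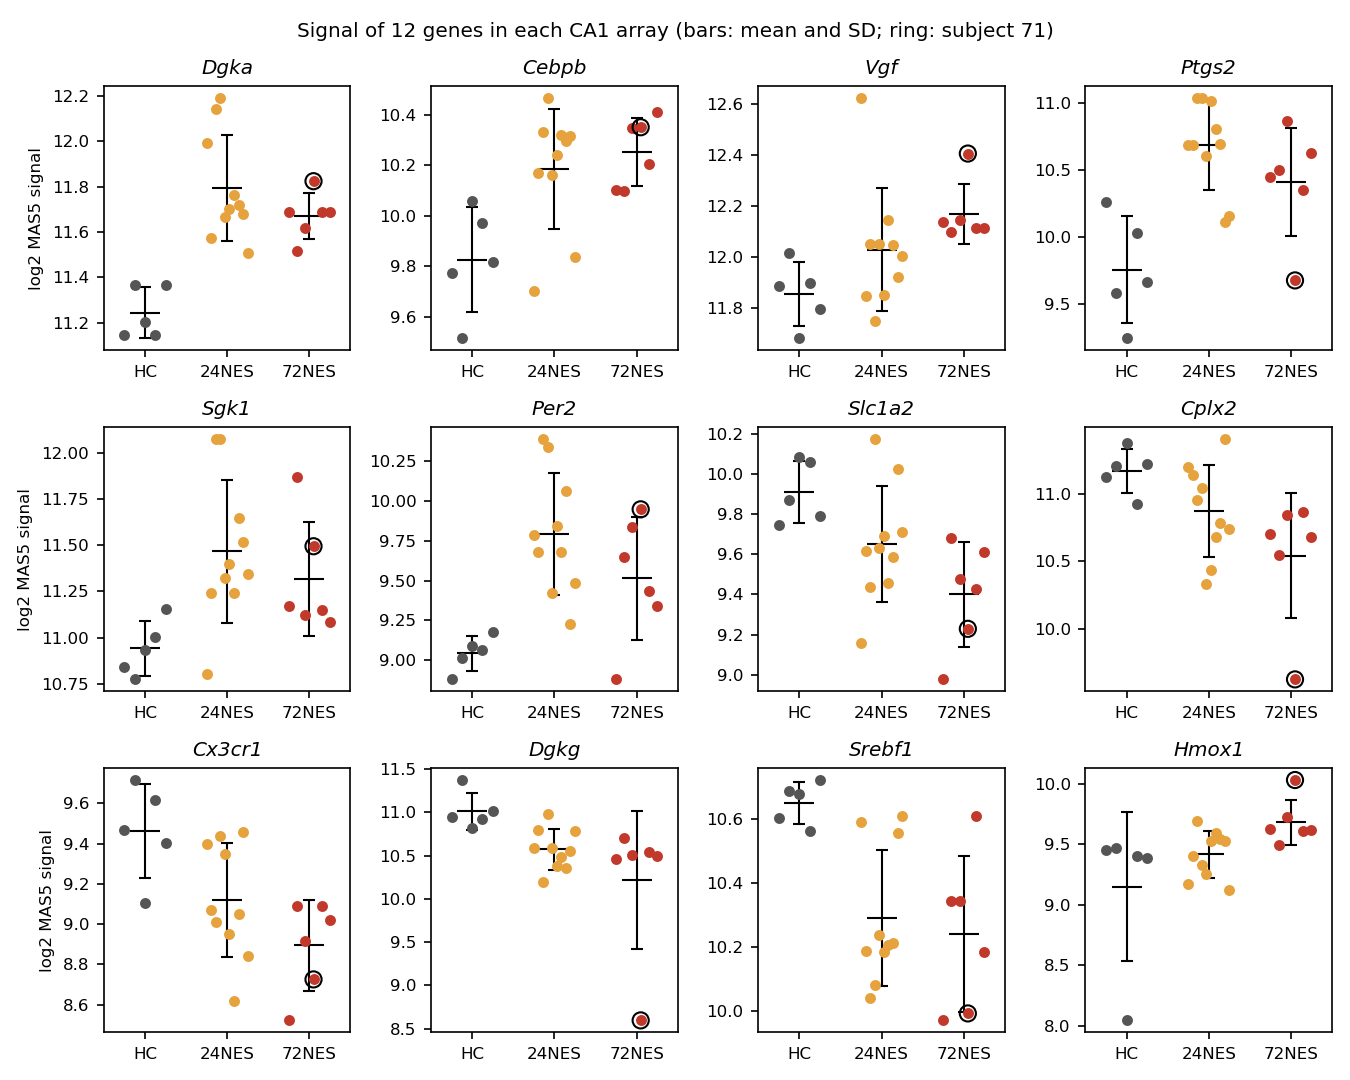
Log2 MAS5 signal of 12 genes in each array of HC (5 arrays), 24NES (10 arrays) and 72NES (6 arrays). Points are arrays, bars give the mean and SD of a group, and a ring marks subject 71. Dgka, Cebpb, Vgf and Hmox1 of 72NES lie wholly above HC. Slc1a2, Cplx2, Cx3cr1 and Dgkg lie wholly below HC. Single arrays decide the spread of Dgkg and Cplx2 in 72NES and of Hmox1 in HC.

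Genes of transmitter release leaned lower. Of 37 measured genes of presynaptic vesicle release, 31 were lower in 72NES and 6 higher, against 2266 lower and 2470 higher over all genes. None passed the adjusted test, 8 were lower at the study's threshold (2.62% over all genes) and 0 higher (2.64% over all genes), and the median difference was -0.13. Without subject 71 the numbers were 25 lower, of which 5 passed the study's threshold beside 94 of all genes, with a median of -0.11. Leaving out HC subject 3 as well left 4 at the threshold, beside 86 of all genes.

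Cplx2, a complexin that clamps and then releases the fusion machinery, led this list. It read 2237.5, 2369, 2662, 1949.8 and 2393 in HC and from 788 to 1868 with a median of 1652 in 72NES, with no overlap (difference -0.63 ± 0.20 SE, adjusted p = 0.666 in limma). Subject 71 gave the lowest value, and without it the difference was -0.45. Snap25, which forms the fusion complex itself, read 26664, 24761, 28107, 25442 and 29865.5 in HC and from 17669 to 26516 with a median of 20219.8 in 72NES, so that the ranges overlapped. Its difference was -0.35 ± 0.13 (SE), and its other 3 probe sets gave -0.12, -0.35 and -0.74. Syngr1, a vesicle membrane protein, and Syn2, which tethers vesicles to one another, differed by -0.39 and -0.23. Syngr1 lost the threshold without subject 71, at -0.25 (limma p = 0.0661).

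Counted by array, the tilt was uneven. The median over the list of each gene's log2 signal minus its HC mean was -0.01, -0.19, -0.05, -0.28, 0.01 and -0.07 in 72NES subjects 68 to 73. In the HC arrays it lay between -0.05 and 0.07. Subjects 69 and 71 were thus clearly below the HC range, subjects 70 and 73 just below it, and subjects 68 and 72 within it. Over all genes the same measure lay between -0.01 and 0.04 in 72NES and between -0.04 and 0.04 in HC.

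Postsynaptic genes were more mixed by count. Of 35 genes of the postsynaptic scaffold and of calcium signalling, 15 were higher and 20 lower, with a median of -0.10. Dlg4, the scaffold that holds receptors at the excitatory synapse, read 4815, 3912, 3716, 6037 and 5539 in HC and from 5701.5 to 7617 with a median of 5984 in 72NES (difference 0.39 ± 0.14 SE). Ppp3r1, the regulatory subunit of calcineurin, differed by -0.40 ± 0.16 (SE). Subject 71 read 4157, and without it the difference was -0.22 (limma p = 0.0605). Of 16 ionotropic glutamate receptor genes by brightest probe set, 7 were higher, 9 lower and 0 passed the study's threshold. For Gria2, an AMPA receptor subunit, the brightest probe set gave 0.19. Its dimmer probe set gave -0.49 ± 0.16 (SE), with every 72NES array below every HC array (limma p = 0.00447, adjusted p = 0.666).

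Of 42 receptors for monoamines, acetylcholine and orexin, 2 were lower at the study's threshold (2.62% over all genes) and 0 higher (2.64% over all genes). Over the alternatives 0 to 4 were lower at that threshold. The 2 that passed were receptors for serotonin. Htr1a, the inhibitory serotonin receptor of pyramidal cells, read 626, 621, 790.4, 770.0 and 814 in HC and from 408 to 717 with a median of 506 in 72NES (difference -0.46 ± 0.18 SE). Htr5b, another serotonin receptor, differed by -0.31 ± 0.13 (SE). Of the list, 18 members were higher and 24 lower. Among 34 potassium channel genes 21 were higher and 13 lower. At the study's threshold 4 were lower (2.62% over all genes) and 0 higher (2.64% over all genes). Over the alternatives 1 to 5 were lower at that threshold. Kcnq3, a subunit of the M-type channel, differed by -0.38, and its other probe set by 0.26. Kcnq3 lost the threshold in 4 of 23 alternatives.

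Astrocyte markers leaned the same way as the vesicle genes. Of 14 measured, 12 were lower and 2 higher, 3 were lower at the study's threshold (2.62% over all genes), and the median difference was -0.12. Over all genes 47.8% were lower. Slc1a2, the transporter that clears most glutamate from the synapse, read 859, 937, 1086, 1066 and 887 in HC and from 504 to 820.1 with a median of 700.2 in 72NES. No value was shared between the groups, the difference was -0.51 ± 0.16 (SE) and its other 3 probe sets gave -0.38, -0.91 and -0.68. Kcnj10, the potassium channel of astrocyte membranes, differed by -1.22 ± 0.53 (SE), and its other probe set by -0.20.

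Subject 71 touched this list as well. It read 76.6 for Kcnj10, against 383 to 774 on the other 72NES arrays, and without it the difference was -0.74 (limma p = 0.11). Gja1, the gap junction protein of astrocytes, differed by -0.52 ± 0.26 (SE), with subject 71 at 523 and HC at 2102, 1872, 1666, 1986 and 1999. Sparcl1, a secreted matrix protein, differed by -0.26 ± 0.12 (SE). Without subject 71, 11 of the 14 markers were lower and 1 passed the study's threshold, and the median stayed at -0.12. The summed signal of the markers ranged from 163779 to 193076 in HC and from 153848 to 190406 in 72NES.

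**Figure D3:**
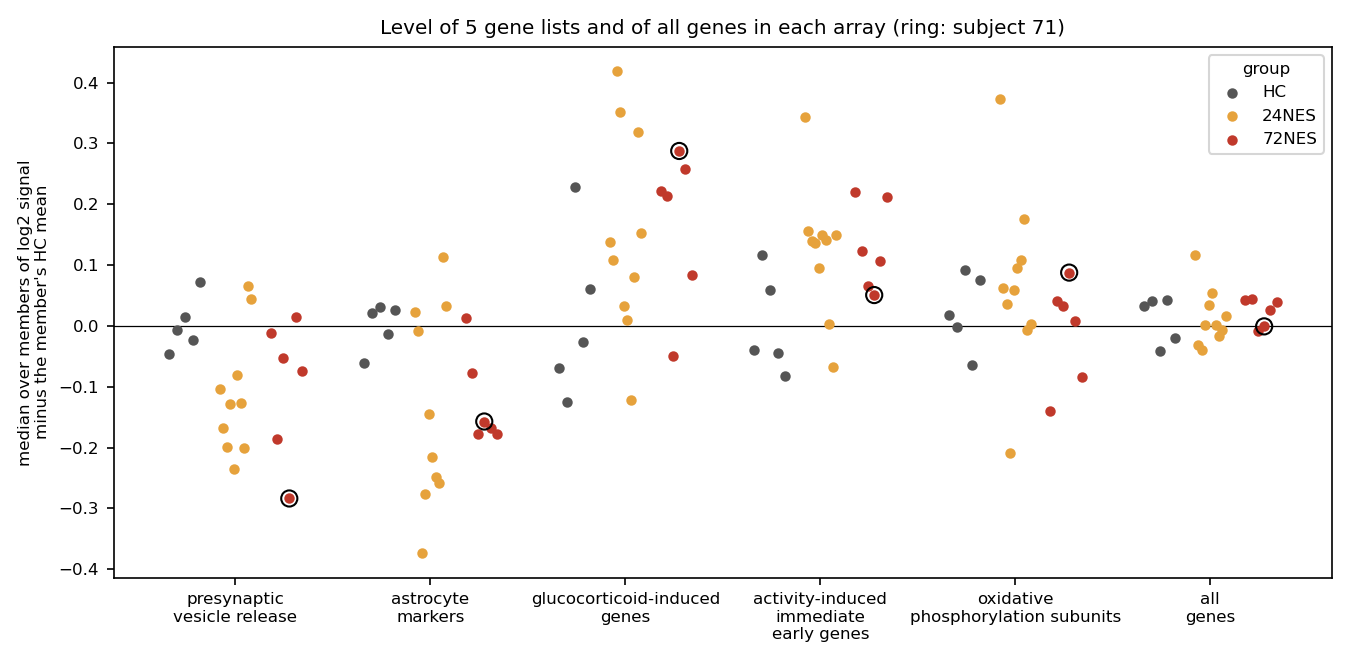
For each array the point gives the median, over the members of a list, of the log2 signal minus that member's HC mean. Columns show 5 lists and all genes, colours show HC (5 arrays), 24NES (10 arrays) and 72NES (6 arrays), and a ring marks subject 71. In 72NES the presynaptic list spans -0.28 to 0.01 and the astrocyte list -0.18 to 0.01. The medians over all genes lie between -0.01 and 0.04 in 72NES and between -0.04 and 0.04 in HC, and reach 0.12 in 24NES, in subject 58.

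Receptors for corticosterone were measured at levels that gave no difference past either threshold. Nr3c1, the glucocorticoid receptor, read 412, 328, 219, 417 and 315 in HC and from 256 to 445 with a median of 322 in 72NES. These are dim signals with full overlap, and the difference of -0.01 had a 95% interval of -0.40 to 0.37. Nr3c2, the mineralocorticoid receptor, read 1775, 1410.0, 1246, 1741 and 1642 in HC and from 1537 to 1945 with a median of 1785 in 72NES. Its difference was 0.18, with an interval of -0.11 to 0.47. Crh, the releasing hormone at the head of the axis, differed by 0.12 (interval -0.27 to 0.52). Fkbp4, a chaperone of steroid receptors, differed by 0.18, while its dimmer probe sets gave 0.01 and -0.11. Of the 14 genes of receptors and their control, 5 were higher and 9 lower, and Fkbp5 and Per1 have no probe set here.

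Targets of these receptors leaned higher. Of 14 measured genes known to be induced by glucocorticoids, 10 were higher and 4 lower, 2 were higher at the study's threshold (2.64% over all genes) and 0 lower, and the median was 0.19, against 0.01 over all genes. Cebpb, a transcription factor of hormone and cytokine responses, read 875, 731, 1065, 1004.5 and 901 in HC and from 1097 to 1362 with a median of 1243 in 72NES. The groups did not overlap, with a difference of 0.43 ± 0.13 (SE) and an adjusted p of 0.661 in limma. Errfi1, a feedback inhibitor of the EGF receptor, differed by 0.39 ± 0.16 (SE), while its 2 dimmer probe sets gave 0.09 and 1.60.

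Sgk1, a kinase often used as a marker of corticosterone action, just missed the study's threshold. It read 1836, 1751, 1955, 2053 and 2284 in HC and from 2173 to 3740.0 with a median of 2288 in 72NES (difference 0.37 with an interval of -0.01 to 0.75, limma p = 0.0549). All 72NES arrays lay above the HC mean, and subject 69 with 3740.0 lay far above the rest. Sult1a1, a sulfotransferase of phenols, differed by 0.27 (interval -0.04 to 0.58). Per array the median of the list was 0.22, 0.21, -0.05, 0.29, 0.26 and 0.08 in subjects 68 to 73, and between -0.13 and 0.23 in HC, where subject 3 gave the highest value.

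The clock gene Per2, which carries glucocorticoid responsive elements and follows sleep loss, differed by 0.47 ± 0.20 (SE). It read 471, 516, 545, 536 and 578 in HC and from 472 to 988 with a median of 749 in 72NES. The HC values were tight, 5 of the 6 72NES arrays lay above all of them, and subject 68 with 472 lay at their lower edge. Of 11 clock genes measured, 5 were higher and 6 lower. Per2 alone passed the study's threshold (limma p = 0.0271, adjusted p = 0.835), at which 2.64% of all genes were higher. Per2 lost the threshold without subject 71, at 0.39 (limma p = 0.0706), without subject 70, at 0.41 (p = 0.0633 in limma), and without HC subject 1, at 0.43 (p = 0.0593 in limma).

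Immediate early genes gave small differences. Of 24 measured, 17 were higher and 7 lower, against 52.2% higher over all genes, and the median was 0.11. At the study's threshold 3 were higher (2.64% over all genes) and 0 lower. Fos, Egr1 and Arc, the transcription factors and the synaptic protein most used to map firing, differed by 0.15 (interval -0.16 to 0.47), 0.09 (-0.09 to 0.26) and 0.21 (-0.07 to 0.49). None of the 3 passed the study's threshold. Homer1, whose short form is induced by firing and by waking, differed by 0.01 (interval -0.19 to 0.22), and its other 5 probe sets gave -0.16 to 0.06.

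Ptgs2, the inducible cyclooxygenase, had the smallest p of this list. It read 1224, 769, 607.5, 1048 and 813 in HC and from 819 to 1861 with a median of 1421 in 72NES (difference 0.65 ± 0.21 SE, limma p = 0.0044), and its dimmer probe set gave 0.28. Subject 71 had the lowest value of its group, 819, inside the HC range. Klf10, an early zinc finger factor, differed by 0.32 ± 0.12 (SE) and Dusp6, the phosphatase that turns off ERK, by 0.31 ± 0.12 (SE).

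Neurotrophins gave values that differed by gene and probe set. Bdnf, which firing induces from several promoters, differed by -0.02 (interval -0.32 to 0.29) on its brightest probe set. Of its 6 other probe sets, 2 were higher at the study's threshold, by 0.58 and 0.48, and the rest gave 0.02 to 0.42. Ntf3, a related factor, differed by 0.35 ± 0.12 (SE). Of 30 trophic factors and receptors measured, 14 were higher and 16 lower. The largest difference among them was that of Igfbp5, a binding protein of insulin-like growth factors, at -1.42 ± 0.37 (SE) on its brightest probe set. Its signals were dim, at 288, 302, 164, 228 and 222 in HC and from 56.9 to 186 with a median of 83 in 72NES. The other probe sets of Igfbp5 gave -0.09 and -0.26, so the gene's level is uncertain.

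Of 25 secreted peptides and their processing enzymes measured, 13 were higher and 12 lower. At the study's threshold 3 were higher (2.64% over all genes) and 0 lower, and without subject 71 and HC subject 3 together 0 were. Vgf, a peptide precursor that firing and neurotrophins induce, read 3787, 4142.5, 3279, 3811 and 3551 in HC and from 4385 to 5430.4 with a median of 4473 in 72NES. The groups did not overlap, and the difference was 0.32 ± 0.12 (SE, adjusted p = 0.781 in limma). Tac3, a tachykinin precursor, differed by 0.37 ± 0.15 (SE). Scg2, a protein of dense core granules, differed by 0.25 ± 0.12 (SE), and lost the study's threshold in 19 of 23 alternatives.

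The start regions of Vgf and Ptgs2 are shown because both genes are known targets of activity and were the members of their lists with the smallest p. Sequences are those of RefSeq on build GRCr8, from 250 bases before to 50 bases after the start used by the table, on the gene's own strand. Capitals mark a cyclic AMP response element (TGACGTCA) or an E-box (CACGTG), searched on both strands, which do not overlap in these windows. Vgf lies on the minus strand at chr12:25276971-25277270 and Ptgs2 on the plus strand at chr13:64713813-64714112.
Vgf: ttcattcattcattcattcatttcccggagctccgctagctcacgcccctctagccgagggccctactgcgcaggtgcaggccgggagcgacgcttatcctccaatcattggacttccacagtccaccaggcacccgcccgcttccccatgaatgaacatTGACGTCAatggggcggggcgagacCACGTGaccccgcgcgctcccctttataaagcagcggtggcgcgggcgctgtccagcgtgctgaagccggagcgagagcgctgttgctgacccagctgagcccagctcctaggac
Ptgs2: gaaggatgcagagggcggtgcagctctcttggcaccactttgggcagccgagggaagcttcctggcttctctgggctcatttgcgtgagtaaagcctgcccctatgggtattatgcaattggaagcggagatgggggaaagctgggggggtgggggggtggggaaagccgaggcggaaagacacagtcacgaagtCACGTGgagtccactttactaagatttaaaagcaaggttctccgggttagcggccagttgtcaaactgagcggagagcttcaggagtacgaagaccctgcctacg

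In Vgf the response element begins 90 bases and the E-box 65 bases before the start. In Ptgs2 the E-box begins 55 bases before the start, and the full response element was not in this window. Of 33469 promoters in the table, 1.83% hold the response element and 6.42% the E-box. Among 21 neuropeptide genes with a promoter in the table, 4 hold the response element: Cartpt, Scg2, Sst and Vgf. It is held by 1 of 17 activity-induced genes, 1 of 12 glucocorticoid-induced genes and 0 of 9 clock genes. The E-box is held by 3, 2, 1 and 3 genes of these lists in the same order. A full glucocorticoid response element was also searched, and was found in 0 genes of each list and in 0.0149% of all promoters. A match describes letters and not binding, and a missing match says only that these letters are not in the window.

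**Figure D4:**
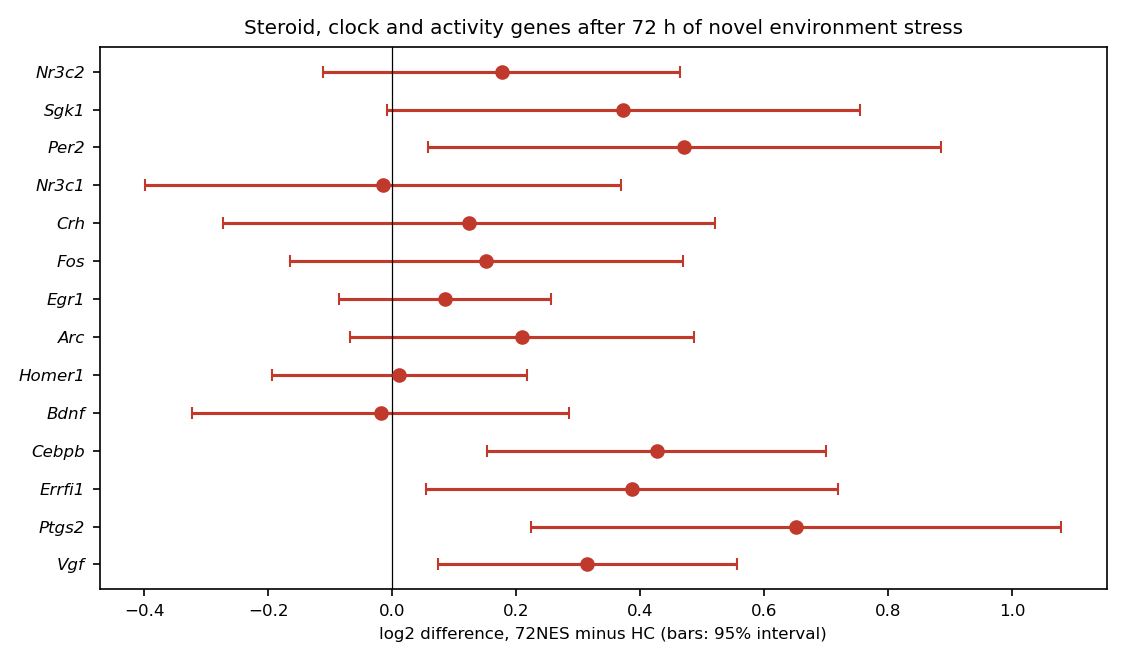
Log2 difference of 72NES from HC (horizontal axis) for 14 genes of steroid action, the clock and neuronal activity. Points are estimates and bars 95% intervals from the fit over HC, 24NES and 72NES. The intervals of Per2, Cebpb, Errfi1, Ptgs2 and Vgf lie above 0. Cebpb, Errfi1, Ptgs2 and Vgf were named by their small p on these same arrays, so their intervals support nothing. The intervals of Nr3c1, Nr3c2, Sgk1, Crh, Fos, Egr1, Arc, Homer1 and Bdnf include 0.

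Stress proteins leaned higher with few at the threshold. Of 27 heat shock and endoplasmic reticulum chaperones and their regulators, 20 were higher and 7 lower, against 52.2% higher over all genes. The median was 0.12. At the study's threshold 1 was higher (2.64% over all genes) and 0 lower (2.62% over all genes). The member that passed was Hmox1, the haem oxygenase induced by oxidants. It read 699, 707, 264, 678 and 669 in HC and from 721 to 1046 with a median of 787 in 72NES, which did not overlap (difference 0.53 ± 0.20 SE). HC subject 3 with 264 made much of this difference, which was 0.26 without it (limma p = 0.0642). Eif2ak3, the endoplasmic reticulum stress kinase, differed by 0.56, with the same HC array lowest at 116. Over the alternatives its difference ran from 0.09 to 0.70, and its dimmer probe set gave -0.02.

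Genes of energy supply gave single members in either direction. Of 22 glycolysis and glycogen genes, 2 were higher at the study's threshold (2.64% over all genes) and 1 lower (2.62% over all genes). Slc2a1, the glucose transporter of the vessel wall, differed by 0.25 ± 0.11 (SE), while its dimmer probe set gave -0.22. Pfkp, a phosphofructokinase, differed by 0.19 ± 0.09 (SE). Hk1, the brain hexokinase, differed by -0.20 ± 0.09 (SE). Of 51 subunits of oxidative phosphorylation 25 were higher, 26 lower and 0 passed the study's threshold, with single differences between -0.24 and 0.30. Of 42 cytosolic ribosomal proteins, 15 were higher and 27 lower. At the threshold 1 was higher (2.64% over all genes) and 3 lower (2.62% over all genes).

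Genes of lipid synthesis lay on both sides. Msmo1, a sterol oxidase of cholesterol synthesis, differed by 0.27 ± 0.11 (SE), while its dimmer probe set gave -0.03. Of the 20 genes of cholesterol and fatty acid synthesis 12 were higher and 8 lower, with a median of 0.05 and a range of -0.70 to 0.29. At the study's threshold 1 was higher, Msmo1 (2.64% over all genes), and 1 lower, Srebf1 (2.62% over all genes). Myelin markers gave nothing past the threshold: of 12 measured, 8 were higher and 4 lower, and Mbp, the myelin basic protein, read 26188 to 42527 in HC and 26887.5 to 40708 in 72NES.

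Other cell type markers were also described by count. Of 12 CA1 pyramidal and general neuronal markers 3 were higher and 9 lower, with a median of -0.12. Their summed signal ranged from 158216 to 193263 in HC and from 145730 to 174737 in 72NES. Of 15 interneuron markers 9 were higher and 6 lower, and of 8 dentate granule and CA3 markers 6 were higher and 2 lower. Neurod1, a factor of granule cells, differed by 0.32 ± 0.15 (SE). The 15 endothelial and pericyte markers summed to 11416 to 13115 in HC and 12437 to 15211 in 72NES. What part shifts in cell makeup had in the gene differences was not tested.

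Gp5 and Tle5 were named after their values were seen, because they led all probe sets by p. Gp5, a glycoprotein of platelets, read 210.6, 252, 209.9, 217 and 175 in HC, below the median signal of these arrays, which was 430.6 to 469.7. In 72NES it ranged from 44.6 to 154 with a median of 47.4. No array overlapped, and the difference was -1.76 ± 0.33 (SE) with an adjusted p of 0.116 in limma. Without subject 70, whose 154 was the highest of its group, Gp5 passed with an adjusted p of 0.00375.

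One of the dimmer probe sets of Tle5, a corepressor of transcription, read 471, 541, 518, 374 and 462.4 in HC and 185 to 383 in 72NES, with a median of 231. Its difference was -0.93 ± 0.18 (SE), with an adjusted p of 0.116 in limma. It passed without subject 72 (adjusted p = 0.0197). The brightest probe set of Tle5 differed by -0.07, and the remaining ones by -0.09 and -0.15.

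Exposure of 24 h was measured against the same HC arrays, so the values of both durations share those controls and are set side by side without a test of likeness. For Psma2 the difference from HC was 0.56 at 24 h and 0.52 at 72 h. For Cebpb it was 0.36 and 0.43, for Srebf1 -0.36 and -0.41, and for Sgk1 0.52 and 0.37. Ptgs2 gave 0.92 at 24 h and 0.65 at 72 h, and Per2 gave 0.75 and 0.47. Genes lower in 72NES with little at 24 h were Rab14 (-0.01 and -0.47) and Ntm (-0.08 and -0.48). Of the 37 vesicle release genes, 27 were lower at 24 h and 31 at 72 h, with medians of -0.16 and -0.13. Of the 14 astrocyte markers, 12 were lower at each duration, with medians of -0.17 and -0.12. For the 14 glucocorticoid-induced genes the medians were 0.14 and 0.19, beside -0.01 and 0.01 over all genes.

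**Figure D5:**
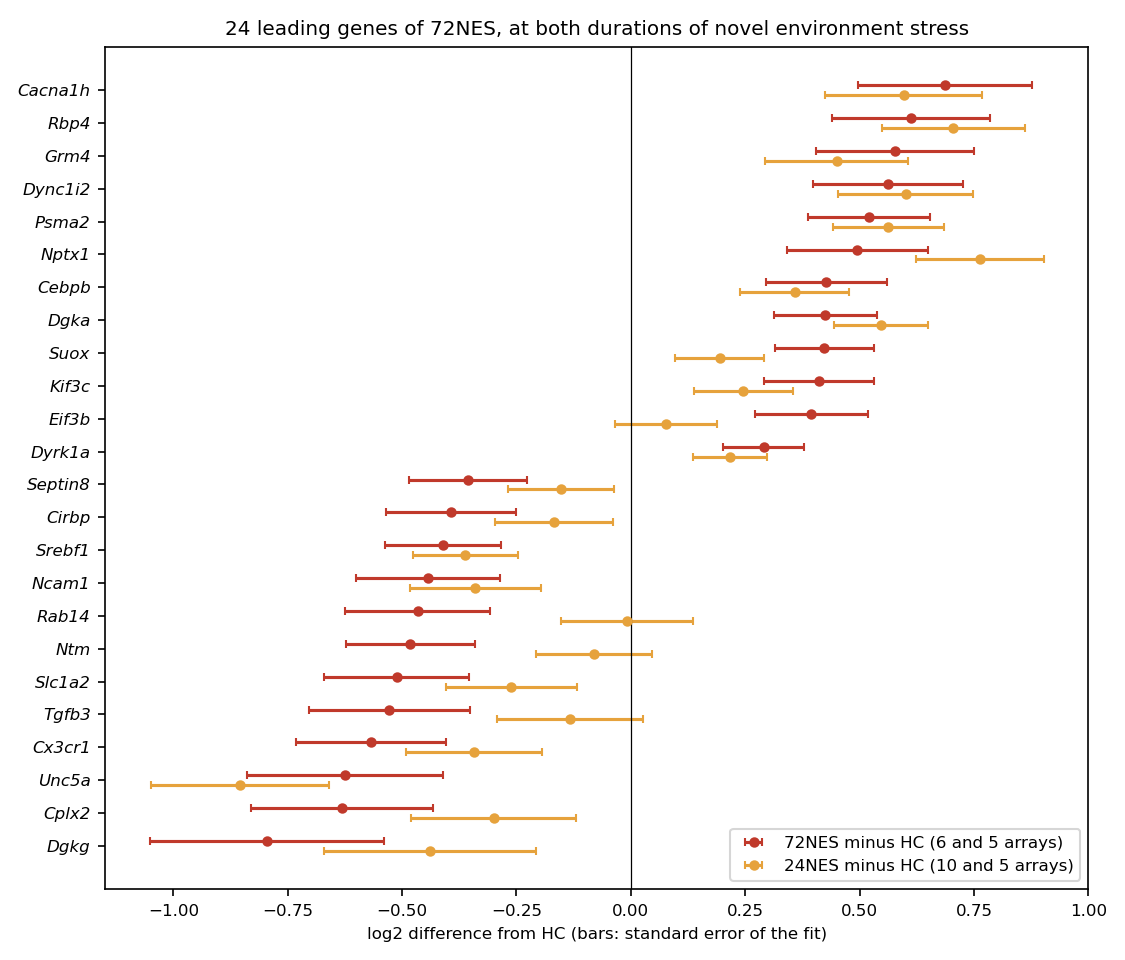
Log2 difference from HC (horizontal axis) for the 24 leading genes of 72NES, ordered by that difference. Red points are 72NES (6 arrays) and orange points 24NES (10 arrays), both against the same 5 HC arrays, with bars of 1 standard error from the fit. Genes were chosen on the red values. Rab14 lies at -0.47 after 72 h and -0.01 after 24 h, and Dgka at 0.42 and 0.55.

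The direct contrast of the durations holds no HC array. In limma 0 of 7006 probe sets passed the adjusted test for 72NES against 24NES, and 545 passed the study's threshold (7.78%), 253 higher at 72 h (3.61%) and 292 lower (4.17%). This balance turned without 24NES subject 58 (346 higher, 314 lower), without subject 71 (233 and 214), with quantile normalization (300 and 263) and in the upper 50% of signals (147 and 95). Without subject 68 there were 140 higher and 193 lower. Gnai2, an inhibitory G protein subunit, had the smallest p among bright genes. It ranged from 5145 to 9188 with a median of 6606 in 24NES and from 7646 to 11876 with a median of 8973 in 72NES, with a difference of 0.45 ± 0.11 (SE), and HC lay at 7794, 9035, 9025, 9217 and 8827.5. The lowest 24NES arrays lay below every array of HC and 72NES.

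The next genes in that order came from several functions. Slc32a1, the vesicular transporter of GABA, ranged from 4326 to 6432 with a median of 5113 in 24NES and from 5848.5 to 7305 with a median of 6542 in 72NES (difference 0.33 ± 0.09 SE). Mmp14, a membrane protease of the matrix, differed by 0.47 ± 0.13 (SE). Ssbp1, which binds mitochondrial DNA, and Cadps, which primes dense core vesicles, were lower at 72 h than at 24 h by values of -0.46 and -0.29. Against HC the 72 h differences of these 5 genes lay between -0.04 and 0.13. The smallest adjusted p of the contrast was 0.126.

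Sleep deprivation of the same length gives the other direct contrast. In limma 0 of 7006 probe sets passed the adjusted test for 72SD against 72NES, with a smallest adjusted p of 0.547, and 490 passed the study's threshold (6.99%), 291 higher in 72SD (4.15%) and 199 lower (2.84%). The excess of higher probe sets was not there without subject 71 (180 higher, 191 lower) or in the upper 50% of signals (95 and 95). Crhbp, the binding protein that traps the releasing hormone of the stress axis, had the smallest p among bright genes. It ranged from 720.3 to 1123 with a median of 898 in 72SD and from 566 to 776 with a median of 649 in 72NES, beside 578, 553.5, 762.5, 669.7 and 624 in HC (difference 0.47 ± 0.12 SE).

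Other genes of this contrast lay on both sides. Myl6, a myosin light chain, ranged from 1067 to 1452 with a median of 1265 in 72SD and from 1305 to 1889 with a median of 1719 in 72NES (difference -0.41 ± 0.11 SE). Ap2a2, an adaptor of clathrin coats, differed by 0.34 ± 0.09 (SE). Camk2n2, an inhibitor of CaM kinase II, differed by 0.42 ± 0.11 (SE), and Apoc1, an apolipoprotein, by 0.29 ± 0.08 (SE). Homer1 differed by 0.06 ± 0.07 (SE) and Per2 by 0.23 ± 0.14 (SE) between 72SD and 72NES, neither at the study's threshold. For the 37 vesicle release genes the median of this contrast was 0.06, and for the 14 astrocyte markers it was 0.10, beside -0.02 over all genes.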

How the data were processed

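Messenger RNA of rat hippocampal CA1 was measured on 69 arrays, 1 per animal. The deposited values are MAS5 signal intensities, which the authors obtained by background subtraction, by combining the probe pairs of each probe set and by scaling each array to a like trimmed mean. The version of that software is not given in the sources used here. Of 8799 probe sets, 59 were controls, 7006 had 1 gene symbol in the platform annotation, 308 had several and 1426 had none, and only the 7006 were tested. Symbols were updated through RefSeq, in which 99.7% were found.

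Signals under 1 were set to 1 and log2 was taken. Differences were fitted with limma 3.58.1 (eBayes with an intensity trend) in R 4.3.3, over the 21 arrays of HC, 24NES and 72NES of cohort 1. The contrast of 72SD with 72NES was fitted over 19 arrays, those of HC, 72SD and 72NES of cohort 1. The Benjamini-Hochberg adjustment ran over all 7006 probe sets, and intervals are at 95%. Array measures were compared by two-sided exact permutation tests. The precision is limited by the number of arrays. The scripts were tested on simulated data.

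Genes were named by rule: the 12 with the smallest p in each direction among genes in the upper 50% of signals, up to 4 of each gene list by p, 12 fixed stress, clock and activity genes where measured, and 5 for each further contrast. Members and the 28 gene lists were chosen with earlier results of these data known. Gp5, Tle5 and genes given for the marker check were named after their values were seen. Alternatives were quantile normalization, median centring, a floor of 50, a filter on low signals, other variance models and other sets of arrays. The 72NES against HC contrast of the methods' ANOVA was also used, on all values and after dropping those over 2 SD from their group. Each 72NES array, and for the comparison with HC each HC array, was left out in turn. Of the 24NES arrays only that of subject 58 was left out, and no 72SD array was. Promoters are those of RefSeq on GRCr8. Figures used Python 3.11.15, numpy 2.4.6 and matplotlib 3.10.9.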

Additional observations from a re-analysis of the deposited data

Results flagged for a closer look

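Each array was set against the others of its group for 76 genes and 4 array measures, in HC (5 arrays) and in 72NES (6 arrays), which made 160 sets of values. In 13 of them the highest or the lowest array stood far from the rest, by Dixon's test of the gap, which chance gives in about 5% of sets.

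Subject 71 of 72NES stood apart most often. Its median signal of 400.5 was the lowest of its group. It was lowest for Cplx2 (788.4), Dgkg (387.1), Kcnj10 (76.6) and Gja1 (523.3), and highest for Vgf (5430.4). Its 3′ to 5′ ratios were also the highest of its group, and their part in these signals was not tested.

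HC subject 3 was lowest for Hmox1 (263.8) and Eif2ak3 (115.9) and highest for Homer1 (3876.9). The other arrays far from their group were HC subject 1 for Gnai2 (7794), subject 68 for Rbp4 (384.4), subject 70 for Myl6 (1304.9) and subject 72 for Igfbp5 (185.8).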

How the results depend on the processing

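No probe set passed the adjusted test for 72NES against HC under any alternative other than leaving out subject 70 (Gp5) or subject 72 (Tle5), and leaving out 1 HC or 72NES array in turn gave 0 to 1 probe sets. The count at the study's threshold ran from 307 without HC subject 3 to 434 without 72NES subject 72. It was 165 with the upper 50% of signals and brightest probe sets only, where fewer probe sets were tested, and 259 without subject 71 and HC subject 3 together, an alternative chosen after the data were seen. The other alternatives gave 368 to 509. For 72NES against 24NES, leaving out 1 72NES array in turn gave 333 (without subject 68) to 720 (without subject 70) at the study's threshold and 0 to 1 at the adjusted level, the upper 50% of signals gave 242, and leaving out 24NES subject 58, chosen after the data were seen, gave 660.0. The probe sets that passed were Ptpn11 without subject 69, Gp5 without subject 70, Casp6 without subject 71 and Kcna2 without subject 73, named after their values were seen. For 72SD against 72NES the upper 50% gave 190, and leaving out 1 72NES array in turn gave 371 (without subject 71) to 630.0 (without subject 70). The causes were not tested.

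Of 66 genes followed through 23 alternatives, 51 passed the study's threshold, none of these changed sign and 29 passed under every one. Scg2 lost the threshold in 19, Neurod1 in 14, Sparcl1 in 10, Hk1 and Pfkp in 9 each and Per2 in 6. With 1 HC or 72NES array left out in turn, Nr3c1 ran from -0.162 to 0.0704, Homer1 from -0.0113 to 0.0730 and Bdnf from -0.0660 to 0.0586. Bdnf was at 0.0568 without subject 71 and HC subject 3 together. Without subject 71 the 72NES minus HC difference was -0.032 for the GAPDH ratio and -0.024 for the beta actin ratio. The median of the vesicle release genes lay between -0.17 and -0.11 over the alternatives, that of the astrocyte markers between -0.16 and -0.09, and that of the glucocorticoid-induced genes between 0.13 and 0.27. No paired analysis was possible because the groups share no subject numbers.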
